A study of Mus musculus with 6 samples.

Results

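The genes described here encode 10 cell-surface proteins by which blood stem and progenitor cells are recognised: Kit, Flt3, Cd34, Prom1, Cd93, Procr, Ly6a, Slamf1, Cd48 and Cd27. They were taken by gene symbol from a table of 53819 genes, and all 10 had a row. The data are read counts per gene in 6 RNA libraries of mouse leukaemia cells, each with between 42829294 and 49537098 counts. The cells came from the spleens of mice that had received primary leukaemia cells carrying both BCR-ABL and NUP98-HOXA9, fusion genes used as a mouse model of blast-crisis chronic myeloid leukaemia (bcCML); the 2 groups share these fusions. The genotype is given as SLC6A6 KO for 3 libraries (KO1 to KO3) and as SLC6A6 WT for 3 (WT1 to WT3), whereas the series title names a knock-down; the gene codes for a carrier of taurine. The sources used here give neither the allele, nor the ages of the mice, nor the sorting marker. Nor do they say that libraries of 1 group were taken from different mice, so p-values cover only the spread of these samples, which may be technical.

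Levels are given as CPM, read counts scaled to library size, with mean ± SD over 3 libraries, and the values of a group are listed in the order of library number. Changes are log2 fold changes of KO over WT with their standard error (SE), and adjusted p-values are Benjamini-Hochberg values over 15232 tested genes from edgeR's quasi-likelihood test, with a threshold of 0.05. Slc6a6 itself stood at 125, 132 and 133 CPM in the KO libraries and at 151, 145 and 145 CPM in the WT libraries. These levels do not check the genotype, since the allele is unknown, and KO and WT stand for the labels. The groups also differed in sex-linked transcripts: 4 Y-linked genes had 10274 to 11236 counts in each KO library and at most 1 in a WT library. Label and sex of the cells therefore cannot be told apart in any difference given here.

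Kit and Flt3 are related receptor tyrosine kinases, the receptors of stem cell factor and FLT3 ligand. In mouse bone marrow, cells without lineage markers but with KIT and SCA-1, the product of Ly6a, hold the stem cells and early progenitors. Within that fraction, stem cells carry the SLAM receptor CD150 (Slamf1) and lack CD48, and gain of FLT3, CD34 and CD27 accompanies the step to multipotent progenitors that no longer renew for long. Procr encodes the endothelial protein C receptor EPCR, Cd93 a C-type lectin-like receptor and Prom1 the membrane protein prominin-1 (CD133). Several of these proteins are not confined to stem cells: KIT marks mast cells and early erythroid progenitors, CD27 and CD48 lymphocytes, FLT3 dendritic cell precursors, and CD34, CD93, EPCR and SCA-1 endothelium.

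The sequences just before the start of 4 of these genes are shown because their transcripts differed in direction: Kit and Cd27 rose in KO, while Flt3 and Cd34 were lower in every KO library than in any WT library. They are RefSeq promoter sequences of the build GRCm38.p6, where 8 of the 10 genes had an entry, and end before the earlier of the RefSeq and GENCODE M21 starts. Coordinates are those of RefSeq, since the sources used here name no build for the deposited counts. Kit lies at chr5:75574737-75574915 on the + strand, Cd27 at chr6:125237028-125237277 on the - strand, Flt3 at chr5:147400490-147400739 on the - strand and Cd34 at chr1:194938571-194938818 on the + strand. Each is written 5′ to 3′ along the strand of its gene, and capitals mark motif matches.
Kit: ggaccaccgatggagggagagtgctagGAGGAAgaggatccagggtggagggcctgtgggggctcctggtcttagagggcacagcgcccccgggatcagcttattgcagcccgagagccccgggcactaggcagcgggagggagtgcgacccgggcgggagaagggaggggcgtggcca
Cd27: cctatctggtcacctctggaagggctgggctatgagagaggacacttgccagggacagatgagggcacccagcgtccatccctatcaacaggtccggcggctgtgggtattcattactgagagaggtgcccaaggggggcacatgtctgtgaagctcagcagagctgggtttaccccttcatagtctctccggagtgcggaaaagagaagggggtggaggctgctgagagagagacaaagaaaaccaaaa
Flt3: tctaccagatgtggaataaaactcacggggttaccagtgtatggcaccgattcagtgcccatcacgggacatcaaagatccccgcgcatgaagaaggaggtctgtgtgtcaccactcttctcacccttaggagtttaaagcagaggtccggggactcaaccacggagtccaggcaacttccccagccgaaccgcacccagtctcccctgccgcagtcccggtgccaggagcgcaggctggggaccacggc
Cd34: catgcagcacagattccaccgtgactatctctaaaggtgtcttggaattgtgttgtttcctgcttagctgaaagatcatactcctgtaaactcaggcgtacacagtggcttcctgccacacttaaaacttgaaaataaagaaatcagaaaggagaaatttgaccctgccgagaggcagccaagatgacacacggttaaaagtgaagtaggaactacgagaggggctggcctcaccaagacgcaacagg
Both strands were searched for AGATAA, a core bound by GATA factors, TGTGGT, a core bound by RUNX factors, GAGGAA, a core bound by ETS factors, and CAGCTG, an E-box. Among these 4 windows the only match was GAGGAA in Kit, 223 bases before its RefSeq start, and 17.1% of 32851 promoter windows of the same length of 179 bases hold that motif. The Kit window had 69.3% G and C, against 56.0% for Cd27, 59.2% for Flt3 and 46.4% for Cd34, with a median of 52.4% over the windows of all genes. A match describes letters in a window and is not evidence of binding.

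Of the 10 genes, 9 passed the filter on low counts, and Kit and Cd27 rose in KO. In such bulk libraries, fewer cells of a type and less RNA per cell cannot be told apart. No member fell at the threshold (0 of 9, with 2 lower at an unadjusted p below 0.05 and 0 lower in limma-voom), and 7 were not called. Across the transcriptome, 1.64% of tested genes were called higher and 1.92% lower, together 3.56%. The KO and WT values did not overlap for Kit, Cd27 and Slamf1, which were higher in all KO libraries, and for Flt3 and Cd34, which were lower in all of them. Such separation was seen in 28.0% of all genes tested. The 9 tested members had 6 positive and 3 negative log2 fold changes with a median of 0.99, where the median over all tested genes was 0.01. With the DESeq2 Wald test, which called 1075 genes higher and 920 lower in all, Kit, Cd27, Slamf1 and Cd93 passed as higher and Flt3 and Cd34 as lower.

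**Figure D1:**
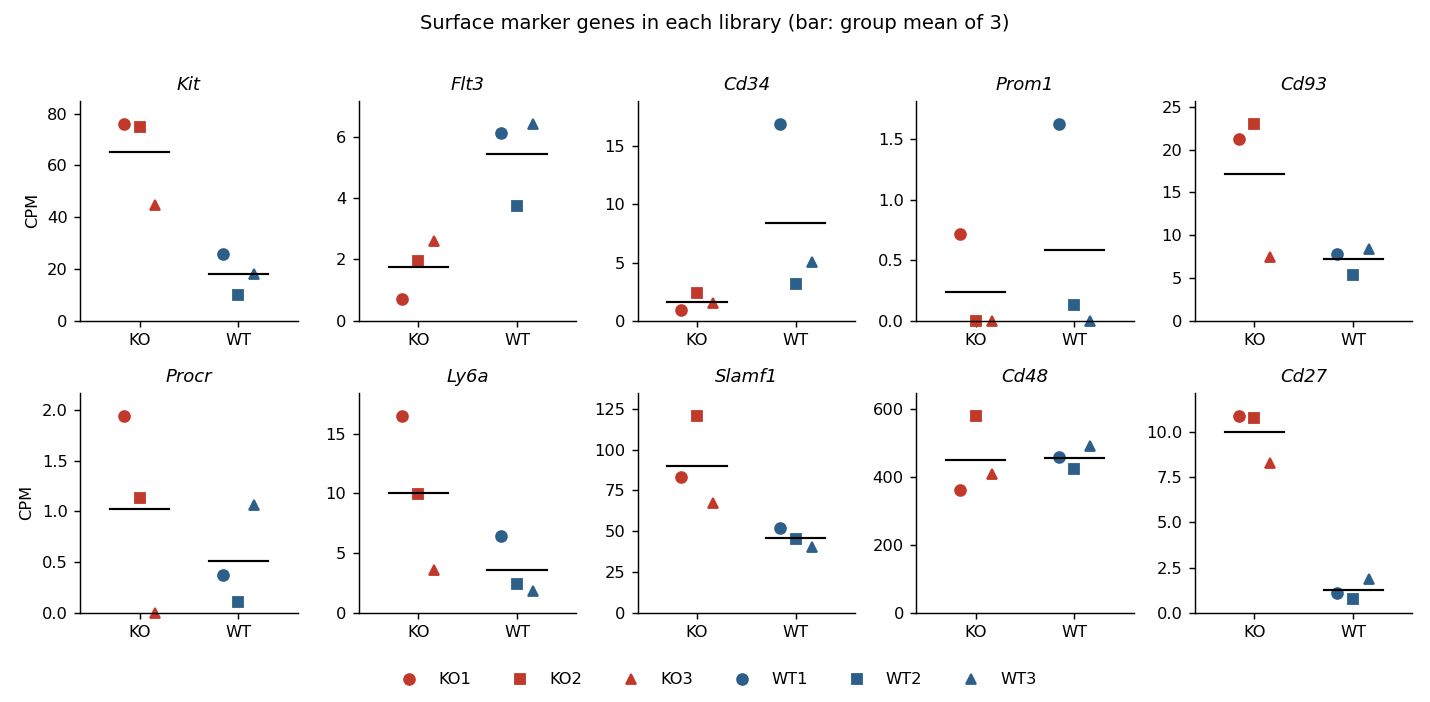
Level of each of the 10 genes in CPM (vertical axes from 0, a separate scale for each gene) in the 3 KO libraries (red) and 3 WT libraries (blue), with marker shapes for library numbers and a bar at the group mean. Kit, Cd27 and Slamf1 lie higher in every KO library than in any WT library, Flt3 and Cd34 lie lower, and the other genes overlap.

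Kit, the receptor of stem cell factor, was at 75.9, 74.8 and 44.6 CPM in the KO libraries and at 25.6, 9.90 and 18.1 CPM in the WT libraries. KO3 was the lowest KO library and still above WT1, the highest WT library. The means were 65.1 ± 17.8 and 17.9 ± 7.87 CPM (SD, n = 3 each), a 3.64-fold rise (log2 fold change 1.86 ± 0.37, SE, adjusted p = 0.0450 in edgeR's quasi-likelihood test). The 95% confidence interval of the fold ran from 2.0 to 6.62. Kit kept its direction but did not pass the test in any of the 6 fits without 1 library (adjusted p from 0.0520 to 0.156, 2.97-fold without WT2 to 4.58-fold without WT1), nor with scaling by the library total (adjusted p = 0.0513).

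Erythroid and mast cell markers bear on Kit. The erythroid list summed to 30187, 10508 and 33987 CPM in the KO libraries and to 4912, 15298 and 9102 CPM in the WT libraries, with overlap between the groups. Of 16 erythroid genes 0 passed edgeR's test, with 7 higher at an unadjusted p below 0.05; DESeq2 called 1 higher and limma-voom 0. With the erythroid level as a covariate the fitted Kit difference was 5.90-fold (adjusted p = 0.0319, edgeR). Mast cell and basophil markers summed to 604 to 878 CPM in KO and 611 to 802 in WT, of which most was Gata2, with Mcpt4 higher, Hdc lower and 7 of 9 not past the test. Below Gata2, Hdc reached 80.7 CPM (WT1), Ms4a2 41.7 CPM (KO1) and Mcpt8 26.5 CPM (KO3), Cpa3 and Fcer1a at most 4.66 and 1.16 CPM, and Tpsb2 had no count in any library. The part of erythroid and mast cells in the Kit level was not tested.

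Flt3, whose product is the receptor of FLT3 ligand, differed in the other direction, from far fewer counts (31 to 310 in a library). Its levels were 0.698, 1.96 and 2.59 CPM in the KO libraries, against 6.14, 3.73 and 6.41 CPM in the WT libraries. The highest KO value lay below the lowest WT value. The WT mean was 3.10 times the KO mean in the fit (log2 fold change −1.63 ± 0.51), but the adjusted p was 0.126, so Flt3 did not pass edgeR's test. The confidence interval of KO over WT ran from 0.140 to 0.741. On a scale per kilobase of exon (RPKM), the Kit level was 75.4, 26.5 and 11.9 times the Flt3 level in the KO libraries, and 2.89, 1.84 and 1.96 times in the WT libraries. The ratio was thus higher in each KO library than in any WT library and varied most among the KO libraries. It was chosen after both levels were known and is a description only; an exact two-sided permutation test of 3 against 3 cannot go below p = 0.1.

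Among the other receptors and ligands of this kinase family, 1 of 6 tested genes rose and 0 fell in edgeR's test. At an unadjusted p below 0.05, 1 was higher and 1 lower. DESeq2 called 1 higher and 0 lower, and limma-voom called 0 in either direction. The median log2 fold change of the 6 was 0.14. Csf1r, the receptor of macrophage colony-stimulating factor, stood at 13.4 ± 11.6 CPM in KO and 1.01 ± 0.200 in WT, 13.3-fold higher (adjusted p = 0.0336, edgeR), and 6.67-fold higher without KO1, which had 26.7 CPM. Csf1r did not pass the test without any 1 of the WT libraries, nor did it pass in limma-voom. Kitl, which encodes stem cell factor, was scarce, with means of 0.276 ± 0.235 CPM in KO and 1.37 ± 0.883 in WT (adjusted p = 0.147). Flt3l, which encodes FLT3 ligand, was at 20.3 ± 0.848 and 17.8 ± 6.21 CPM (adjusted p = 0.715), and Csf1 at 1.86 ± 0.234 and 0.617 ± 0.692 CPM (adjusted p = 0.379). Pdgfra had no count in any library.

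Dendritic cell markers rose for 3 of 7 tested genes, with sums of 120.5 to 139 CPM in KO and 48.0 to 55.8 in WT. The 3 were the MHC class II pathway genes Cd74, H2-Aa and H2-Eb1. Cd74 and H2-Ab1 were the most abundant in KO, at 44.4 and 52.0 CPM. All 7 had positive log2 fold changes, but Zbtb46 overlapped between the groups (adjusted p = 0.488, edgeR) and Xcr1 was not called (adjusted p = 0.239). Siglech, Batf3 and Clec9a were too scarce to be tested. Macrophage markers, a list that includes Csf1r, rose for 3 of 12 tested genes, with sums of 119.7 to 204 CPM in KO and 35.8 to 56.3 in WT. The largest part was Cx3cr1, with means of 60.05 CPM in KO and 21.9 in WT. Of the 12 genes, 10 had positive and 2 negative log2 fold changes. All 10 were higher in every KO library than in any WT library, as were 13.6% of all genes tested. At an unadjusted p below 0.05 in edgeR's test, 10 were higher and 0 lower. DESeq2 called 9 higher and limma-voom 2, with 0 lower in both. The 2 with negative values were Adgre1 (−0.258) and Cd68 (−0.199), which overlapped between the groups and were not called. The part of dendritic cells and macrophages in the member levels was not tested.

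Of 24 genes for adaptors, kinases and inhibitors that act below KIT and FLT3, 2 rose and 4 fell in edgeR's test, with a median log2 fold change of −0.03. DESeq2 called 3 higher and 5 lower, and limma-voom 1 higher and 3 lower. The 4 that fell were Sla, an adaptor that limits receptor signalling (69.2% lower), Sh2b2, an adaptor (58.9% lower), Socs1, an inhibitor of cytokine signalling (50.4% lower), and Gab2, a docking protein (33.6% lower), at adjusted p-values from 0.0318 to 0.0450. Sla stood at 57.0, 65.1 and 66.4 CPM in the KO libraries and at 308, 143 and 160.4 CPM in the WT libraries, with WT1 far above the rest. The 2 that rose were Gab1, a docking protein related to Gab2, from 4.61 ± 1.17 CPM in WT to 16.4 ± 5.62 in KO (3.56-fold), and the kinase gene Jak2, from 79.3 ± 5.89 to 114 ± 7.86 CPM (1.44-fold), at adjusted p-values of 0.0369 and 0.0364. Gab1 and Gab2 therefore differed in opposite directions, though Gab1 passed the test in only 1 and Gab2 in 0 of the 6 fits without 1 library. The tyrosine phosphatase gene Ptpn6, at 224 ± 10.6 against 359 ± 98.7 CPM, had an adjusted p of 0.0973.

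Of the 2 SLAM receptors, Slamf1 was higher in every KO library and Cd48 overlapped between the groups. Slamf1, which encodes CD150, was at 83.2, 120.2 and 66.9 CPM in the KO libraries and at 51.8, 45.1 and 40.4 CPM in the WT libraries. KO3 was the lowest KO library and WT1 the highest WT library. The means were 90.1 ± 27.3 and 45.8 ± 5.73 CPM, 1.97-fold apart (log2 fold change 0.98 ± 0.22, interval of the fold 1.38 to 2.82), and the adjusted p of 0.0607 missed the threshold in edgeR's test. Slamf1 passed the test with no filter on low counts (adjusted p = 0.0485) and with the erythroid covariate (adjusted p = 0.0328). It passed in 0 of the 6 fits without 1 library (adjusted p from 0.0617 to 0.202, edgeR), and not with a replicate block (adjusted p = 0.116). Cd48, whose product stem cells of normal marrow lack, was at 362, 579 and 410.0 CPM in the KO libraries and 459, 422 and 490.2 CPM in the WT libraries. The KO libraries lay on both sides of the WT libraries, the log2 fold change was −0.02 ± 0.17 (adjusted p = 0.959), and the interval of the fold ran from 0.744 to 1.30.

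Per kilobase of exon, the Slamf1 level was 0.0387 ± 0.00656 of the Cd48 level in KO and 0.0194 ± 0.00312 in WT. The ratios of the 2 groups did not overlap, but neither did the Slamf1 levels alone, so the ratio is a description only and adds no separate support. Cd48 was well above Slamf1 in every library. Of 6 other tested SLAM family and adaptor genes Cd2, a CD48 ligand of T and NK cells, rose from 0.0786 ± 0.0509 to 1.46 ± 0.389 CPM (18.2-fold, adjusted p = 0.0292, edgeR). Cd244a, the high-affinity CD48 receptor, was at 3.34 ± 0.898 and 4.12 ± 1.37 CPM (adjusted p = 0.686). Cd84 was at 35.7 ± 2.73 and 41.7 ± 14.2 CPM (adjusted p = 0.634), and Ly9 at 3.49 ± 1.55 and 2.43 ± 0.471 CPM (adjusted p = 0.521). Slamf7, at 0.812 ± 0.334 and 0.251 ± 0.167 CPM, had an adjusted p of 0.191.

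Cd27, a receptor of the tumour necrosis factor family, showed the largest fold change of the tested members. Its levels were 10.8, 10.8 and 8.27 CPM in the KO libraries, from 482, 495 and 341 counts, and 1.09, 0.780 and 1.86 CPM in the WT libraries, from 55, 37 and 84 counts. The KO libraries were close to each other and all far above WT. The means of 9.96 ± 1.47 and 1.24 ± 0.555 CPM differed 8.02-fold (log2 fold change 3.0 ± 0.38, adjusted p = 0.0165, edgeR), with an interval of the fold from 4.32 to 14.9. Cd27 passed the test in 5 of the 6 fits without 1 library and had an adjusted p of 0.0569 without KO1. Its fold ranged from 6.75 without WT2 to 10.5 without WT3. In GENCODE M21 the microRNA gene Mir8113 covers 5.54% of the exon bases of Cd27 on the same strand.

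Transcripts of the CD27 ligand and of the adaptors below CD27 showed no change at the threshold. The ligand gene Cd70 had no count in any library, and of 5 tested adaptor genes 0 passed edgeR's test, DESeq2 or limma-voom, with 1, Map3k14, at an unadjusted p below 0.05. Map3k14, the kinase NIK of the alternative NF-kB pathway, had means of 2.03 ± 0.270 and 1.01 ± 0.400 CPM in KO and WT (unadjusted p = 0.0430, adjusted p = 0.211). Traf2 was at 69.7 ± 5.29 and 64.4 ± 4.68 CPM (adjusted p = 0.572), and Siva1, a death-domain protein that binds CD27, at 136 ± 15 and 131 ± 14.8 CPM (adjusted p = 0.828). Intervals of the fold were narrow for both, 0.917 to 1.28 for Traf2 and 0.857 to 1.26 for Siva1.

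T and NK cell markers rose for 6 of 14 tested genes in edgeR's test, with 0 lower. At an unadjusted p below 0.05, 10 were higher and 1, Klrb1c, was lower. DESeq2 called 9 higher and limma-voom 3, with 0 lower in both. The summed CD3 chains stood at 9.36, 2.35 and 8.19 CPM in the KO libraries and at 0.634, 0.253 and 0.309 CPM in the WT libraries. Cd27 is also a gene of T cells. The whole T and NK list summed to 759 to 1058 CPM in KO and 705 to 859 in WT, of which nearly all was Nkg7, and without it to 25.2 to 57.9 and 14.6 to 22.1 CPM. B and plasma cell markers rose for 3 of 8 tested genes, with list sums of 63.6 to 168 CPM in KO and 5.53 to 43.3 in WT. The part of lymphoid cells in the Cd27, Cd48 and Ly6a levels was not tested.

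**Figure D2:**
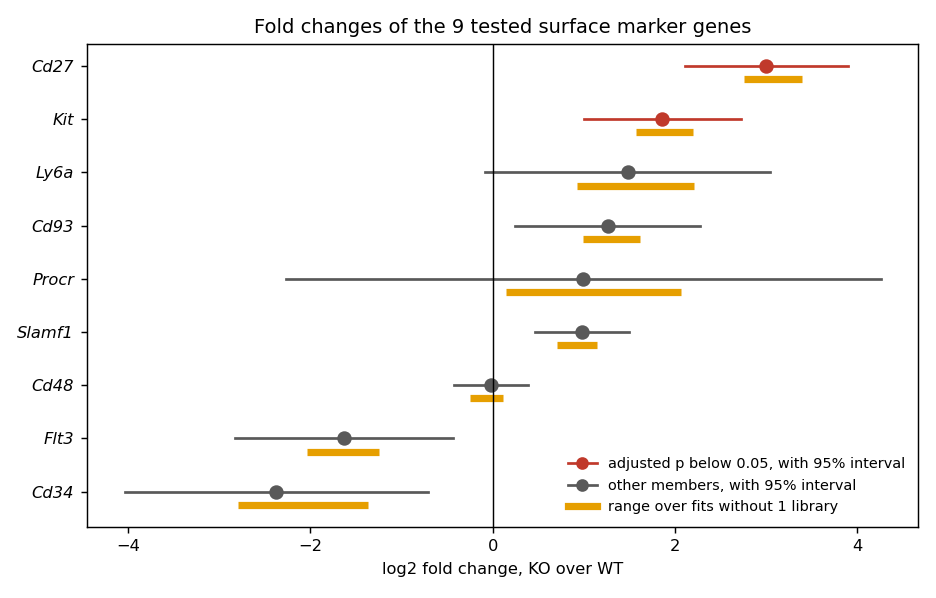
Fitted log2 fold change of KO over WT (horizontal axis) with its 95% interval for the 9 tested genes, Cd27 and Kit in red as past the threshold and the others in grey, and in orange the range over the 6 fits without 1 library. Only the intervals of Procr, Ly6a and Cd48 include 0, and the orange range crosses 0 for Cd48 alone.

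Cd34, the sialomucin that marks progenitors and endothelium, was lower in every KO library, with a size of the difference that depended on WT1. It was at 0.878, 2.42 and 1.53 CPM in the KO libraries and at 16.9, 3.14 and 5.08 CPM in the WT libraries. The groups did not overlap, though WT2 was only slightly above KO2. The WT level was 5.20 times the KO level in the fit (log2 fold change −2.38 ± 0.70, adjusted p = 0.114, edgeR), and 2.59 times without WT1 (adjusted p = 0.201). With the erythroid covariate it was 1.79 times (adjusted p = 0.483). GENCODE M21 places an antisense gene over 2.03% of the exon bases of Cd34, and the protocol does not mark strand.

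Prom1 was near the limit of detection. It had counts of 32, 0 and 0 in the KO libraries and of 82, 6 and 0 in the WT libraries, so library 1 of each group held most of its reads. In the libraries without a count, the limit that 3 counts allow was 0.0653 CPM (KO2), 0.0727 CPM (KO3) and 0.0663 CPM (WT3). Prom1 did not pass the filter on low counts and was not tested; without the filter its adjusted p was 0.806. An antisense gene covers 5.91% of its exon bases.

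Cd93, the C-type lectin-like receptor, was at 21.2, 23.0 and 7.39 CPM in the KO libraries and at 7.79, 5.31 and 8.42 CPM in the WT libraries. KO1 and KO2 were well above WT, while KO3 lay among the WT libraries. The fold was 2.40 (log2 fold change 1.26 ± 0.43, interval of the fold 1.19 to 4.85) with an adjusted p of 0.151 in edgeR's test, and 3.07 without KO3 (adjusted p = 0.0558). Of 2 tested relatives of CD34 and CD93 0 passed edgeR's test, DESeq2 or limma-voom, and 0 had an unadjusted p below 0.05. Podxl, the CD34-related podocalyxin, was at 353 ± 65.4 and 406 ± 53.0 CPM (adjusted p = 0.512), and Cd248, of the CD93 family, was at 4.52 ± 1.33 and 2.83 ± 2.25 CPM (adjusted p = 0.546).

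Endothelial markers had list sums of 378 to 645 CPM in KO and 191 to 262 in WT, of which most was Vwf, the only 1 of 8 tested to rise. Without Vwf the sums were 82.9 to 92.1 and 59.0 to 83.3 CPM. Of the 8 tested genes, 7 had positive and 1 a negative log2 fold change, with a median of 0.77. At an unadjusted p below 0.05 in edgeR's test, 2 were higher and 1 lower. DESeq2 called 2 higher and 1 lower, and limma-voom 1 higher and 0 lower. Of the 15 genes of the list 3, Cdh5, Cldn5 and Sox17, had no count in any library. The part of endothelial cells in the member levels was not tested.

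Procr, which encodes EPCR, was scarce, with counts of 86, 52 and 0 in the KO libraries and of 19, 5 and 48 in the WT libraries. These correspond to 1.94, 1.13 and 0 CPM and to 0.376, 0.105 and 1.06 CPM. KO1 and KO2 lay above every WT library and KO3 below every WT library. The interval of the fold, from 0.207 to 19.1 (adjusted p = 0.732), allows a large change either way. The fitted fold of 1.99 was 1.11 without KO1, 4.20 without WT3 and below 1, at 0.885, in limma-voom. Of its pathway, Thbd, which encodes thrombomodulin and is also of the CD93 family, rose from 2.21 ± 0.153 to 17.0 ± 8.51 CPM (7.69-fold, adjusted p = 0.0205, edgeR). Thbd was at 25.3, 17.4 and 8.31 CPM in the KO libraries, so KO3 was the lowest for Thbd as it was for Procr. F2r, the thrombin receptor PAR1, was at 946 ± 112 and 1222 ± 176 CPM (adjusted p = 0.159), and Pros1, which encodes protein S, was at 72.1 ± 29.8 and 33.9 ± 10.2 CPM (adjusted p = 0.124). The protein C gene Proc had no count in any library.

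Ly6a, which encodes SCA-1, was at 16.5, 9.95 and 3.61 CPM in the KO libraries and at 6.46, 2.42 and 1.83 CPM in the WT libraries. WT1 lay between KO3 and KO2, so the ranges overlapped. The fold was 2.80 with an interval from 0.946 to 8.27 and an adjusted p of 0.248 in edgeR's test. It was 1.90 without KO1 (adjusted p = 0.561), 4.63 without WT1 (adjusted p = 0.142) and 5.08 with the erythroid covariate (adjusted p = 0.219). Ly6 genes are close copies of each other, and the sources used here do not say how reads with several matches were counted, so levels within the family are uncertain. Of 4 other tested Ly6 genes Ly6d rose, from 0.217 ± 0.0172 to 1.39 ± 0.477 CPM (6.35-fold, adjusted p = 0.0355). Ly6e was at 921 ± 156 and 827 ± 113 CPM (adjusted p = 0.608). Ly6c2 was at 3.19 ± 1.83 and 11.6 ± 11.6 CPM (adjusted p = 0.247), and Ly6c1 at 0.533 ± 0.352 and 0.0368 ± 0.0638 CPM (adjusted p = 0.148).

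**Figure D3:**
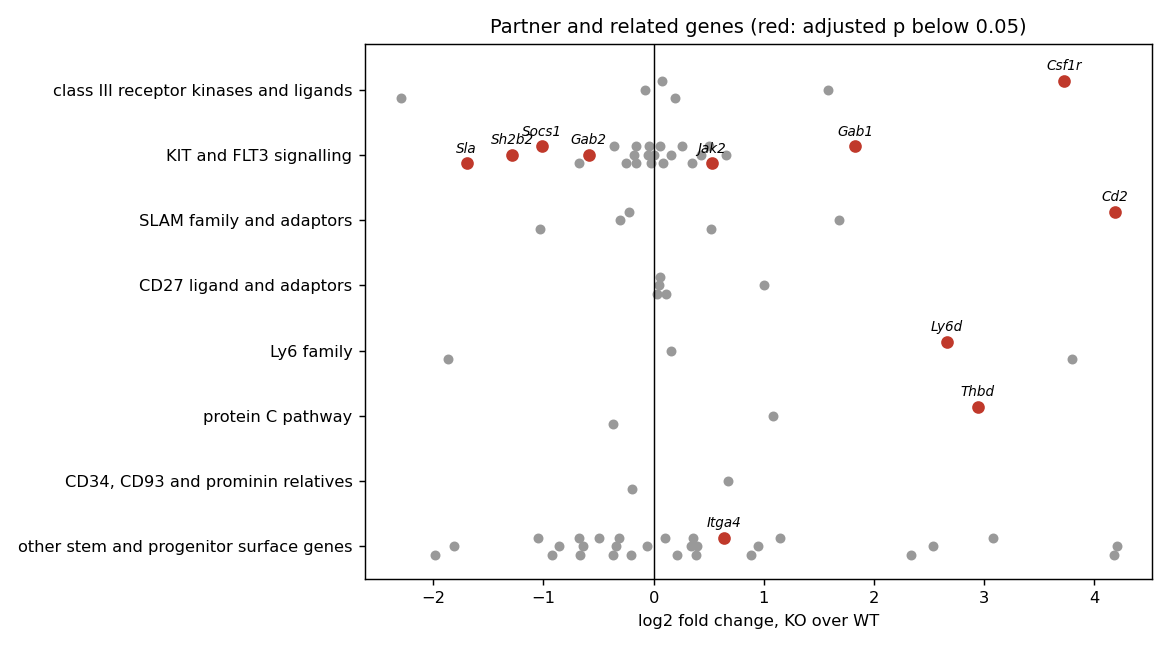
Fitted log2 fold change of KO over WT (horizontal axis) for the tested ligands, signalling partners and relatives of the marker genes, 1 point per gene and 1 row per list, with genes past the adjusted threshold in red and named. The CD27 adaptors lie close to 0 except Map3k14, and the KIT and FLT3 signalling genes hold named genes on both sides of 0.

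Per kilobase of exon, Cd48 was far above every other member in each library, at 379 ± 95.8 RPKM in KO and 384 ± 28.5 in WT. Slamf1 followed in 5 of the 6 libraries, at 14.6 ± 4.44 and 7.43 ± 0.931 RPKM. In KO, Ly6a at 8.30 ± 5.33, Kit at 7.30 ± 1.99 and Cd27 at 4.28 ± 0.632 RPKM came next; the range of Ly6a, between 2.997 and 13.65 RPKM, took in that of Kit and overlapped those of Slamf1 and Cd27, while Kit was above Cd27 in each KO library. In WT, Ly6a at 2.96 ± 2.09 and Kit at 2.01 ± 0.883 RPKM again overlapped, and below them Cd34, Cd93, Flt3 and Cd27 lay between 0.534 and 1.15 RPKM on average. Cd27 thus ranked 4 or 5 among the 10 genes in the KO libraries and 7 or 8 in the WT libraries. Flt3 and Cd34 ranked 7 to 9 in KO and 5 to 8 in WT. Procr ranked 7 in KO1 and KO2 and 9 or 10 elsewhere, and Prom1 ranked 9 or 10 in every library.

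**Figure D4:**
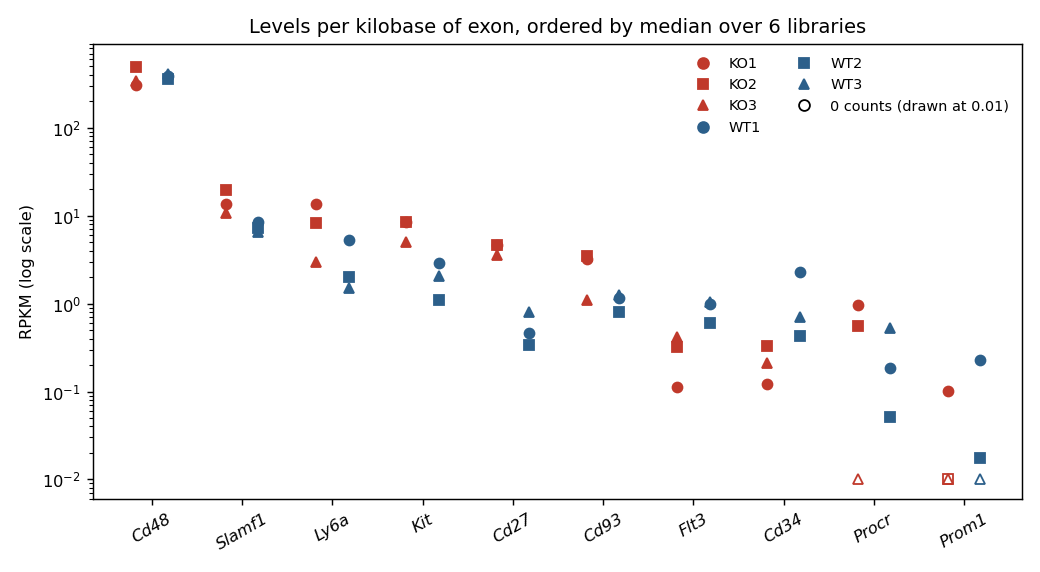
Level of the 10 genes per kilobase of exon (RPKM, log axis) in each KO (red) and WT (blue) library, ordered by the median over 6 libraries, with open symbols at 0.01 for libraries without a count. Cd48 lies above 300 RPKM in all libraries, and the KO and WT points separate for Slamf1, Kit, Cd27, Flt3 and Cd34.

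The libraries of a group differed among themselves. KO3 was the lowest KO library for the 6 tested members with a positive fold change, Kit, Cd27, Slamf1, Cd93, Ly6a and Procr, of which only Kit and Cd27 passed the test, and KO1 was the lowest for Flt3, Cd34 and Cd48. The highest KO value was 1.31 times the lowest for Cd27, 1.70 times for Kit and 1.80 times for Slamf1, but 3.11 times for Cd93 and 4.55 times for Ly6a. Among the WT libraries, WT2 was the lowest for 7 of the 9 tested members. The widest WT ranges of genes detected throughout were those of Procr, 10.1 times, and Cd34, 5.38 times.

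Of 29 tested other genes of stem and progenitor cells, nearly all for surface proteins, 1 rose and 0 fell, with 9 higher and 5 lower at an unadjusted p below 0.05 and a median log2 fold change of 0.10. DESeq2 called 6 higher and 2 lower, and limma-voom 1 higher and 0 lower. Itga4, the alpha-4 integrin chain that binds VCAM-1, rose from 129 ± 10.3 to 200 ± 16.6 CPM (1.55-fold, adjusted p = 0.0252, edgeR). Cd47 was at 1074 ± 63.3 and 847 ± 49.3 CPM (adjusted p = 0.0608), and Tek, the angiopoietin receptor TIE2, at 13.4 ± 6.35 and 2.32 ± 1.37 CPM (adjusted p = 0.0654). Both genes were higher in each KO library than in any WT library. None of the 11 named partner and progenitor genes past the threshold stayed past it in all 6 fits without 1 library, and none of the 11 changed direction in those fits. Csf1r passed in 3 of the 6 fits and Sla, Cd2, Thbd and Itga4 in 2. Gab1, Socs1, Jak2 and Ly6d passed in 1, and Gab2 and Sh2b2 in 0. In limma-voom Csf1r, Gab1, Sh2b2 and Ly6d did not pass.

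By the rule of highest correlation of log2 CPM over the 6 libraries among genes with at least 10 CPM, the genes most like Kit were Wwp2 (Pearson r = 0.998), Psmb9 (0.994) and Ankfy1 (0.993). Those most like Cd27 were Oaz2 (0.995), Eif4e3 (0.993) and Pde4b (0.993). These points share libraries, depth and the group difference, so the values only describe the pattern. Pde4b and Eif4e3 rose, 2.67-fold and 2.46-fold with adjusted p-values of 0.0165 and 0.0330 in edgeR's test. The 3 genes most like Kit, and Oaz2, did not pass.

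Markers of the leukaemia itself and of further cells were examined in the same libraries. The general blood-cell marker Ptprc (CD45) had means of 105 ± 23.0 and 98.0 ± 49.2 CPM in KO and WT, with overlap. Myb was at 212 ± 12.3 and 179 ± 16.4 CPM (adjusted p = 0.184, edgeR) and Hoxa9 at 102 ± 5.63 and 134 ± 5.73 CPM (adjusted p = 0.0502, edgeR). Neither overlapped between the groups, Myb being higher and Hoxa9 lower in every KO library. The sources used here do not say whether reads of the NUP98-HOXA9 fusion were counted under Hoxa9. The myeloid granule gene Mpo was at 0, 1.65 and 21.8 CPM in the KO libraries and at 53.1, 11.8 and 8.27 CPM in the WT libraries. Elane ranged from 0 to 13.8 CPM in KO and from 5.11 to 31.4 in WT, and Ctsg from 6.03 to 12.97 CPM in KO and from 3.96 to 12.05 in WT, so the groups overlapped for these 3 genes. Of the 9 genes of this list for leukaemic and myeloid blasts 0 passed edgeR's test, with 1 higher and 2 lower at an unadjusted p below 0.05; DESeq2 called 1 lower and limma-voom 0. This list summed to 491 to 505 CPM in KO and 431 to 683 in WT.

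Markers of megakaryocytes and platelets rose for 1 (Vwf) and fell for 1 (Pf4) of 12 tested genes, with sums of 747 to 1074 CPM in KO and 1046 to 1766 in WT. Neutrophil markers summed to 18.6 to 257 CPM in KO and 106 to 749 in WT with 0 of 10 past edgeR's test; 1 was higher and 3 lower at an unadjusted p below 0.05, and DESeq2 called 2 lower and limma-voom 0. Stromal markers summed to 126 to 189 and 98.5 to 244 CPM, with 0 of 2 tested genes past edgeR's test, DESeq2 or limma-voom and 0 at an unadjusted p below 0.05. Of the 10 stromal genes, 8 had a WT mean under 1 CPM, and 3 of the 10, Col3a1, Pdgfra and Dcn, had no count in any library. Pdgfrb had means of 2.58 CPM in KO and 2.44 in WT, so most of the WT sums came from 1 other gene.

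**Figure D5:**
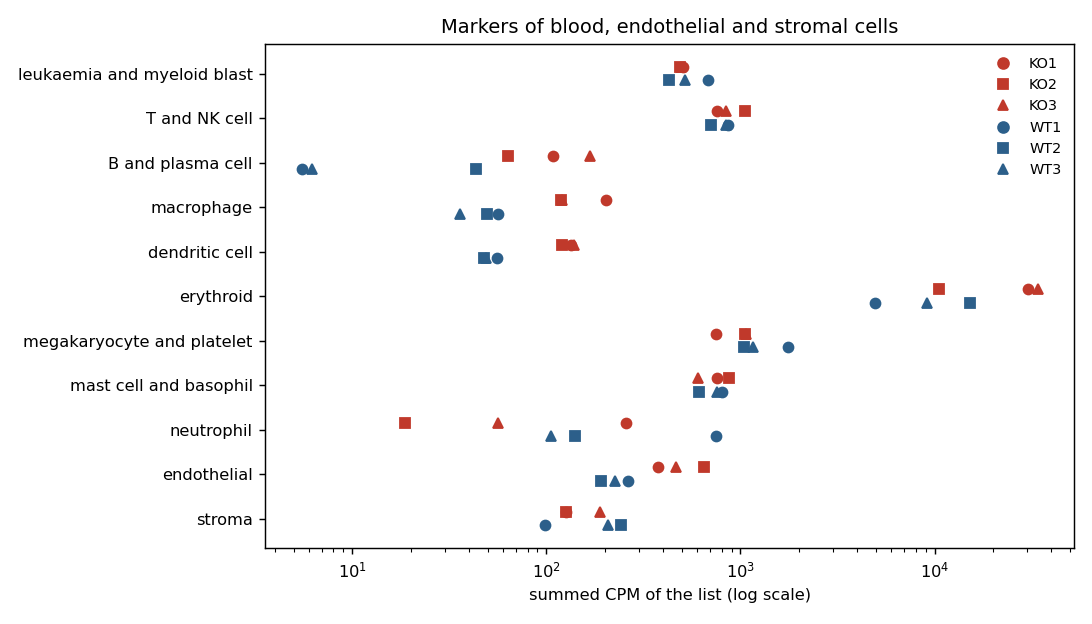
Summed CPM (log axis) of each list of cell markers in the KO (red) and WT (blue) libraries, 1 point per library. The sums of B cell, macrophage, dendritic and endothelial markers are higher in every KO library than in any WT library, and the sums of the other 7 lists overlap.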

How the data were processed

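The values used are whole counts of reads per gene, as deposited by the authors, with 1 column for each of 6 libraries. Per the labels' protocols, RNA was pre-amplified with the SMARTer low-input kit, made into Nextera XT libraries and read as single ends. Strand is not marked and there are no molecular identifiers, so the limits given for libraries without a count cover counting error only. Intervals of fold changes come from the fit and include the spread between libraries. The submitters' processing notes name featureCounts, Subread 2.0.1, STAR 2.7.9a and fastp 0.23.1, but no settings, genome build or annotation.

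Here, edgeR's filterByExpr (minimum count 10, minimum total 15) left 15232 genes. KO and WT were compared in edgeR 4.0.16 (R 4.3.3) by the robust quasi-likelihood F test with TMM scaling and no covariate. SE is the size of the log2 fold change over the square root of F. RPKM is CPM over the exon length in GENCODE M21. The code was tested on simulated data. Alternatives were other scalings and filters, DESeq2 1.42.0, limma-voom (limma 3.58.1), a replicate block, each library left out, and an erythroid covariate (mean log2 CPM of the erythroid markers), which an earlier analysis of these data had added after seeing them.

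The genes named are the 10 members; from each partner list those past the test and up to 3 more with the smallest p among genes of 1 CPM or more; from each cell list the most abundant and those past the test; and the 3 genes most like each member past the test. Other genes named were chosen after their values were seen. Some genes that the rule would name are not reported here. The members and lists were chosen with earlier results of these data known.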

Additional observations from a re-analysis of the deposited data

How the results depend on the processing

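No 1 library decided the direction of Kit or Cd27, but their calls depended on the libraries and settings. Leaving out 1 library at a time gave log2 fold changes of 1.57 to 2.20 for Kit, which passed in 0 of 6 fits, and of 2.75 to 3.40 for Cd27, which passed in 5 of 6. The members called higher numbered 0 to 1 in these fits, and over all genes 13 to 371 were called higher and 29 to 247 lower, the fewest without WT3 and the most without KO2. Kit missed the threshold with scaling by the library total (log2 fold change 1.85, leaving 1 member called) and without the filter on low counts (1.86). DESeq2 called 1075 genes higher and 920 lower, 53.9% of its calls being higher, with 4 members higher and 2 lower. The erythroid covariate gave 147 genes higher and 110 lower, 57.2% of them higher, and 3 members higher.

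Same-numbered libraries did not deviate together, with correlations of 0.06, −0.12 and −0.06 for numbers 1, 2 and 3, so the numbers were not taken to pair the samples. A replicate block gave 8 genes higher and 20 lower, 28.6% of them higher, and 0 members, with log2 fold changes of 1.91 for Kit and 3.08 for Cd27.

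The direction of Cd48 changed with the erythroid covariate (log2 fold change 0.22) and without KO1 (0.11), KO3 (0.03) or WT3 (0.02), within a range of −0.25 to 0.11 over the fits without 1 library. Procr changed direction in limma-voom (−0.18). All the other tested members kept their direction in every alternative. Prom1 was tested only without the filter. Low counts limit what can be said of Prom1 and Procr, which had at most 86 in any library. Their counts also differed widely between libraries of similar depth, with 86, 52 and 0 for Procr in KO and 82, 6 and 0 for Prom1 in WT.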
